A study of Mus musculus with 15 samples.

Results

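Skeletal muscle of exercised and sedentary mice was compared in a set of 6 RNA sequencing libraries, exercise replicates 1 to 3 and sedentary replicates 1 to 3, out of 15 libraries in the whole series. The members were chosen by their group label and replicate number alone, and no measured value entered the choice. All mice were C57BL/6, aged 12 months, kept on a normal diet and starved overnight before the muscle was taken, so both groups were fasted. The sedentary mice were wild type, and the labels give no other allele or agent for either group. The kind, length and timing of the exercise, the muscle sampled, the sex of the mice and the hour of sampling were not given in the sources used here. The labels also do not state that each library came from a separate animal, so the p-values measure only the spread between these libraries, which may be technical.

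Total counts were 54851831 to 58853959 per exercise library and 61864368 to 69788530 per sedentary library, and genes of the mitochondrial genome took 4.49 to 7.87% of the counts. The entries AY036118 and CT010467 took 0.88, 12.3 and 3.44% of the counts in exercise 1, 2 and 3. In sedentary 1, 2 and 3 they took 7.67, 10.1 and 2.83%. Levels are given as CPM, counts relative to the library size after scaling with TMM factors, in the order of replicates 1, 2 and 3. The abundance of the muscle myosins Myh4, Myh1 and Myh2 fitted the labelled tissue. Exercise 3 and sedentary 1 stood apart from the other libraries. The first principal component, with 34.9% of the variance, placed exercise 3 at 79.1, sedentary 1 at -69.5 and the other 4 libraries between -6.6 and 1.6. Slow fibre genes were lowest in exercise 3 and highest in sedentary 1, as described with the fibre genes, so results that rest on these libraries are given with and without them. No library was a copy of another. In each library values of 4, 8 and 12 made up 41.7 to 45.2% of all counts from 1 to 15, so a value of 1 may stand for something other than 1 read, which was not tested.

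No gene passed the test. Of 16012 genes with enough counts, 0 had an edgeR quasi-likelihood adjusted p under 0.05 (percent called 0, lowest adjusted p 0.981), and 617 (3.85%) had an unadjusted p under 0.05. Of those 617 genes, 282 (1.76%) were higher and 335 (2.09%) lower in exercise. A total of 765 genes (4.78%) were above all sedentary libraries in every exercise library, and 817 (5.1%) were below them. The median log2 fold change over all genes was -0.0074, and 6.08% of the genes had a log2 fold change beyond 1 in either direction. DESeq2, run as an alternative, called 36 of 21450 genes (0.168%), 20 higher (0.0932%) and 16 lower (0.0746%), and limma-voom called 0, with 632 genes at an unadjusted p under 0.05. An exact permutation test of a single gene cannot go below p = 0.1 with 3 libraries against 3. The values below are therefore descriptions of single genes and gene groups, with the DESeq2 adjusted p where that tool made a call. It is also printed for Mt1, Snhg17 and Il15, which DESeq2 did not call, and left out for other genes not called.

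**Figure D1:**
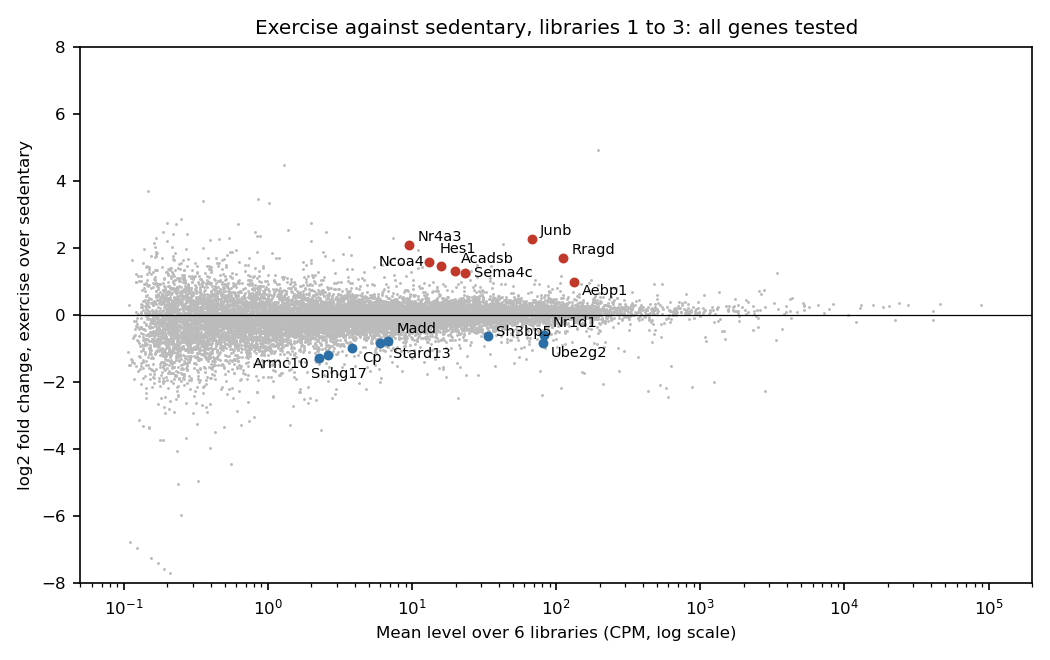
Each point is a gene, with its mean level over the 6 libraries (CPM, log scale) on the horizontal axis and its edgeR log2 fold change of exercise over sedentary on the vertical axis. The named points are the 8 genes with the smallest p-values in each direction, red where higher and blue where lower in exercise, and Junb (2.26) and Nr4a3 (2.08) lie highest among them.

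The genes with the smallest p-values in the higher direction included immediate early genes, which are transcribed within minutes of a stimulus without new protein synthesis. In muscle, contraction raises calcium and cyclic AMP, and the factors CREB, SRF and MEF2 then act on the promoters of such genes. Many encode transcription factors themselves: the Fos and Jun families form the AP-1 dimer, and Nr4a1, Nr4a2 and Nr4a3 are orphan nuclear receptors that act on muscle glucose and lipid genes. Others, such as Dusp1 and Zfp36, encode proteins that end the signal.

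Promoter windows are shown for 7 of the 10 immediate early genes whose exercise libraries all lay above the sedentary ones, to show where the letters of a cyclic AMP response element occur. The 7 were picked with the motif matches known, and each printed window holds that element or its core. Of the 3 genes not shown, Fosl2 and Zfp36 have neither in their windows and Klf4 has 1 core, and for Maff the 1 of 3 windows with a full element is printed. The sequences are from RefSeq on GRCm38.p6 and run 5′ to 3′ along the gene's strand. They hold the 250 bases before a RefSeq start site, shortened for Nr4a3 and Dusp1 where a GENCODE exon lies in the window. The Nr4a1 window lies inside the gene as GENCODE annotates it, before a start site of shorter transcripts. Capitals mark the cyclic AMP response element (CRE, TGACGTCA), its short core TGACG on either strand, which is also contained in a full CRE, and for Nr4a2 a MEF2 site. The windows are at chr8:84978749-84978998 (minus strand) for Junb, chr15:101266596-101266845 (plus) for Nr4a1, chr2:57124004-57124253 (minus) for Nr4a2, chr4:48045055-48045152 (plus) for Nr4a3, chr1:134079156-134079405 (minus) for Btg2, chr17:26508520-26508722 (minus) for Dusp1 and chr15:79347270-79347519 (plus) for Maff.
Junb: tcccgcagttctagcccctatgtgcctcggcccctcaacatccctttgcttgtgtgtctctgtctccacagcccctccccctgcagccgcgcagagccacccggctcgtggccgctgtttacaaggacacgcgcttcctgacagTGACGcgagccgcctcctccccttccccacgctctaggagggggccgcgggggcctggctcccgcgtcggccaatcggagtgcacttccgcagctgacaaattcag
Nr4a1: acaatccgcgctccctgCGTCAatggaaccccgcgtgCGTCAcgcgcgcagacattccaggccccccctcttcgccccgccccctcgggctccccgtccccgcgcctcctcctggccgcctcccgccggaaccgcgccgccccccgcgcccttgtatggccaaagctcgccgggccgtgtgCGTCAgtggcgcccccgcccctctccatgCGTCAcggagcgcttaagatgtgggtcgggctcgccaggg
Nr4a2: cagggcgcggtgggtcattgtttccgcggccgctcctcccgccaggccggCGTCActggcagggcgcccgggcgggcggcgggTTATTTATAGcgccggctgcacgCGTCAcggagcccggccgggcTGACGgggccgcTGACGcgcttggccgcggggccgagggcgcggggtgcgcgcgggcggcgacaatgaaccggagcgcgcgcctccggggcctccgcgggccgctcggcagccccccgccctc
Nr4a3: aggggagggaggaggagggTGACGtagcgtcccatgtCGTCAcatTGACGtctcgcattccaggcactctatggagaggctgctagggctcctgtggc
Btg2: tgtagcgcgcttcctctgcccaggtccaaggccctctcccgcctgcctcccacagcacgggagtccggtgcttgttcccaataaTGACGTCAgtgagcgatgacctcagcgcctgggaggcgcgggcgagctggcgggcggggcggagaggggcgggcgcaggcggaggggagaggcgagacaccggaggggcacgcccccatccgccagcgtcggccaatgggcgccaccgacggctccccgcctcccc
Dusp1: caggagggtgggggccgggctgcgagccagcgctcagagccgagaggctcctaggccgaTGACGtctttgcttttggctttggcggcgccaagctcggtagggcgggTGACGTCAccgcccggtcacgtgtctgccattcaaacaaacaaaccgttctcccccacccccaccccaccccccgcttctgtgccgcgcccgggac
Maff: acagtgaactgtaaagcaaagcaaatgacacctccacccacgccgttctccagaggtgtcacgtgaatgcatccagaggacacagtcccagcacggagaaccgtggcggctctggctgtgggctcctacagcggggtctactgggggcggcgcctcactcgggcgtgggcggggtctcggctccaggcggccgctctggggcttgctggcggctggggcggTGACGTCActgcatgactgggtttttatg

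The printed windows of Nr4a1 and Nr4a2 each held 4 copies of the short core, that of Nr4a3 held 3, and those of Btg2, Dusp1 and Maff each held 1 full CRE. Searched on both strands in the unshortened windows, the full CRE was found in 3 and the short core in 8 of the 10 immediate early genes whose libraries did not overlap. Among 12 other immediate early genes searched, the full CRE was found in 0 and the short core in 7. Windows on 1 chromosome were left out of this search and some members had no window. Not every other member, Egr1 for example, is therefore among the 12. Over all 32851 RefSeq windows of this length, 1.55% held a full CRE and 17.8% the short core. The SRF motif, the CArG box, was found in the windows of Zfp36 among the 10 and of Egr2 among the 12, against 1.47% of all windows. The MEF2 site was found in 1 of the 10 (Nr4a2) and 3 of the 12 genes, against 2.92% of all windows, and AAAGGTCA, the NR4A response element, in 0 of the 10 and 0 of the 12 against 1.34%. Some genes have several windows in the table, and a match describes letters only.

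Of 28 immediate early genes in the table, all passed the filter on low counts, 10 were higher in every exercise library than in any sedentary library, and 0 were lower in every one. Over all genes tested these shares were 4.78% and 5.1%. The list's median log2 fold change was 0.31 against -0.0074 over all genes. Over fits without 1 library it ranged from 0.17 to 0.82. The standard deviation of the list's mean log2 level between libraries of a group was 0.55, larger than the median. An unadjusted edgeR p under 0.05 was found for 8 members, all higher, where 1.76% of all genes were higher at this p. DESeq2 called 4 members higher, Junb, Nr4a1, Nr4a2 and Nr4a3, where it called 0.0932% of all genes higher. Without sedentary 1 the number of non-overlapping members was 14, where the share over all genes was 9.31%, without exercise 3 it was 10 (8.13%), and without both it was 14 (16.9%). Members below all sedentary libraries then numbered 1 (9.92% of all genes), 1 (7.93%) and 2 (18%). The count was 8 with library totals in place of TMM-scaled sizes, for which the share over all genes is not given. Genes in these paragraphs other than the 4 with the smallest p-values were chosen after their values were seen.

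Among the AP-1 genes, Junb, a Jun family member linked to maintenance of muscle mass, stood at 82.6, 101 and 152 CPM in exercise and at 22.8, 15.6 and 31.6 CPM in sedentary libraries. The lowest exercise library was thus well above the highest sedentary one, with a log2 fold change of 2.26 (SE 0.32) and a DESeq2 adjusted p of 6.1e-08. Without exercise 3 and sedentary 1 the log2 fold change was 1.96. Exons of Junb overlap those of Prdx2 on the opposite strand in the annotation. Fosl2, another AP-1 subunit, was at 32.8, 66.0 and 46.1 CPM in exercise against 25, 19.7 and 29.2 CPM (log2 fold change 0.97, SE 0.27). Maff, a small Maf factor that dimerises with other basic leucine zipper proteins, was at 31.7, 51.7 and 41.9 CPM against 19.7, 5.86 and 18.5 CPM (1.51, SE 0.43). Sedentary 2 was the lowest library for both Fosl2 and Maff.

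All 3 NR4A receptor genes were higher in every exercise library. Nr4a3, which contraction is known to induce in muscle, was at 13.9, 21.7 and 10.6 CPM in exercise and at 2.43, 4.45 and 4.04 CPM in sedentary libraries, a log2 fold change of 2.08 (SE 0.34, DESeq2 adjusted p 1.91e-05). Nr4a1 was at 556, 659 and 666 CPM against 269, 366 and 352 CPM (log2 fold change 0.93, SE 0.18, DESeq2 adjusted p 0.00268). The groups were separated by a gap wider than the range within either group. Nr4a2 was at 5.57, 12.0 and 9.55 CPM against 3.57, 2.41 and 3.70 CPM (1.48, SE 0.32, DESeq2 adjusted p 0.0213). Without exercise 3 and sedentary 1 the log2 fold changes of Nr4a3, Nr4a1 and Nr4a2 were 2.07, 0.76 and 1.52.

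Genes whose products restrain the response formed another part of the 10. Dusp1, a phosphatase of MAP kinases, was at 214, 277 and 237 CPM in exercise and at 188, 81.6 and 192 CPM in sedentary libraries. Zfp36, which promotes decay of mRNAs with AU-rich elements, was at 186, 189.7 and 211 CPM against 119, 68.5 and 117 CPM. Btg2, an antiproliferative protein, was at 211, 246 and 244 CPM against 156, 40.2 and 144 CPM. For these genes the exercise libraries lay close together, and sedentary 2 was far below sedentary 1 and 3. Klf4, a zinc finger transcription factor, was also lowest in sedentary 2, with 65.5, 67.5 and 62.5 CPM against 51.6, 17.5 and 37.3 CPM. The log2 fold changes were 0.66 (SE 0.32) for Dusp1, 0.94 (SE 0.23) for Zfp36, 1.04 (SE 0.45) for Btg2 and 0.88 (SE 0.35) for Klf4.

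Several of the best known members overlapped between groups. Fos was at 134, 306 and 319 CPM in exercise and at 163, 28.8 and 212 CPM in sedentary libraries, and Fosb at 33.2, 32.0 and 76.5 CPM against 30.9, 1.26 and 33.7 CPM. Egr1, an early zinc finger factor, was at 58.6, 38.3 and 83.0 CPM against 132, 6.02 and 94.3 CPM. Sedentary 2 was again the lowest library for all 3 genes, so the spread within the sedentary group was wide. The log2 fold changes were 0.91 (SE 0.66) for Fos, 1.10 (SE 0.94) for Fosb and -0.37 (SE 0.86) for Egr1. Jun, the main partner of Fos, was at 135, 199 and 176 CPM against 241, 186 and 274 CPM (-0.46, SE 0.21). The lowest log2 fold change on the list was that of Ccn1, a secreted matrix protein, at -0.56 (SE 0.57).

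**Figure D2:**
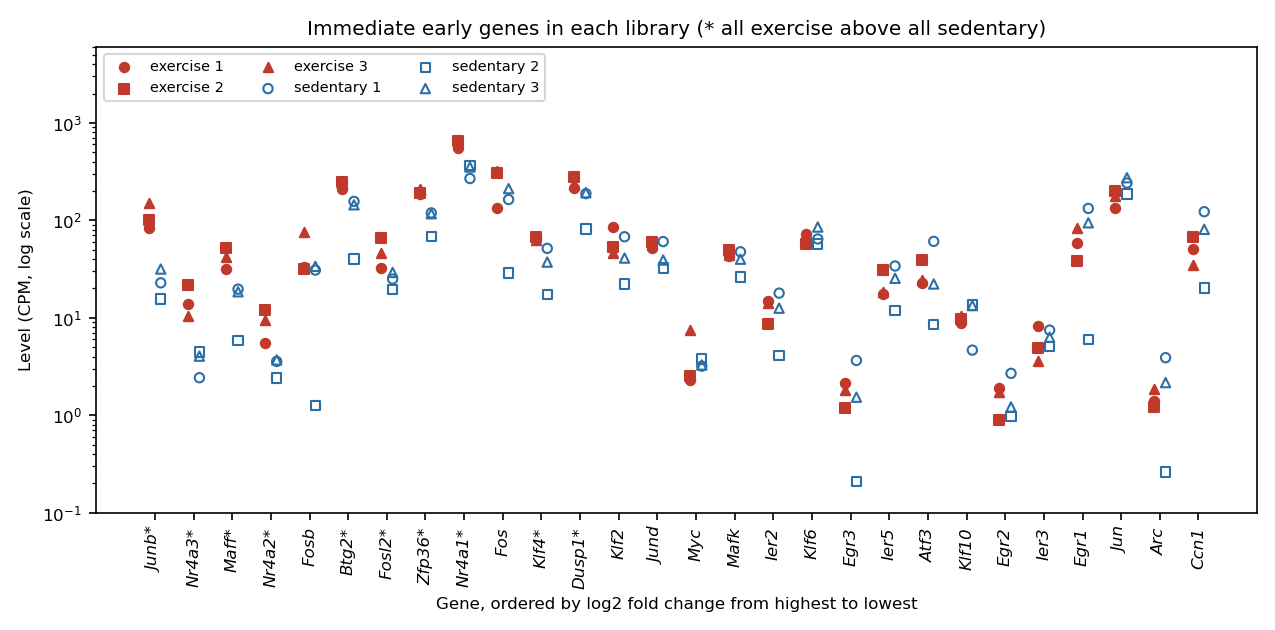
Levels of the 28 immediate early genes in each library (CPM, log scale), ordered from the highest log2 fold change (Junb, 2.26) to the lowest (Ccn1, -0.56), with filled red symbols for exercise and open blue symbols for sedentary libraries and 1 symbol shape per replicate number. The 10 starred genes have all 3 exercise libraries above all 3 sedentary libraries. Sedentary 2 is the lowest library for many genes, both starred ones such as Btg2 and Dusp1 and others.

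Other genes with the smallest p-values in the higher direction act in Notch signalling, nutrient sensing and iron handling. Hes1, a repressor that is a direct target of Notch, was at 19.2, 20.2 and 19.9 CPM in exercise and at 6.92, 3.84 and 8.84 CPM in sedentary libraries, a log2 fold change of 1.59 (SE 0.29, DESeq2 adjusted p 0.00147). The exercise libraries were almost equal. Rragd, a Rag GTPase that couples amino acids at the lysosome to mTORC1 and is a target of the lysosomal factors TFEB and TFE3, was at 142, 167 and 203 CPM against 77.5, 39.8 and 39.1 CPM (1.71, SE 0.30, DESeq2 adjusted p 0.000211). Ncoa4, the receptor that brings ferritin to autophagosomes, was at 22.4, 23.2 and 24.6 CPM against 12.2, 6.57 and 6.68 CPM (1.46, SE 0.26, DESeq2 adjusted p 0.0016). In both genes sedentary 1 was the highest of its group, and without it the log2 fold changes were 2.11 and 1.82.

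Sema4c, a membrane semaphorin, was at 26.9, 37.3 and 35.0 CPM against 11.8, 14.5 and 14.9 CPM and had the smallest edgeR p of all named genes (log2 fold change 1.27, SE 0.17, DESeq2 adjusted p 1.91e-05). Its exons overlap those of D430040D24Rik on the opposite strand. Aebp1, a secreted matrix protein of connective tissue, was at 152, 184 and 193 CPM against 76.7, 104 and 87.0 CPM (0.98, SE 0.17, DESeq2 adjusted p 0.0016). Acadsb, an acyl-CoA dehydrogenase of isoleucine breakdown, was at 28.3, 22.7 and 33.3 CPM against 7.62, 13.0 and 13.2 CPM (1.32, SE 0.25, DESeq2 adjusted p 0.00423). Neither group overlapped the other in these 3 genes, and leaving out exercise 3 and sedentary 1 together gave log2 fold changes of 1.13, 0.81 and 0.96.

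Stress and fasting genes were mixed. Of 30 genes on the fasting and atrophy list, 4 were higher in every exercise library, Mt2, Mt1, Ddit4 and Foxo4, and 0 lower, with a median log2 fold change of 0.095. For this and each following list, the shares over all genes tested were 4.78% above and 5.1% below without overlap. Mt2 and Mt1 encode metallothioneins, which bind zinc and respond to glucocorticoids and metals. Mt2 was at 23.6, 39.2 and 47.4 CPM against 18.3, 13.3 and 12.2 CPM (1.33, SE 0.28, DESeq2 adjusted p 0.0151), but Gm45774, which DESeq2 also called higher, overlaps it on the opposite strand. Mt1 was at 71.6, 97.0 and 109.8 CPM against 58.4, 38.6 and 48.4 CPM (0.94, SE 0.22, DESeq2 adjusted p 0.0743). Foxo1, a driver of the fasting and atrophy programme, was at 105, 139 and 154 CPM against 75.8, 108 and 59.6 CPM, so that sedentary 2 was above exercise 1 (0.71, SE 0.25). Pdk4, the kinase that spares glucose by blocking pyruvate dehydrogenase, was at 1144, 1163 and 1463 CPM against 944, 1486 and 1794 CPM (-0.16, SE 0.26). Gadd45b, a stress gene outside the naming rule and chosen after its values were seen, was at 46.4, 24.9 and 39.9 CPM against 11.4, 6.31 and 15.9 CPM (1.73, SE 0.36, DESeq2 adjusted p 0.00423).

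The genes named by the smallest p-values in the lower direction, all with a mean log2-cpm of at least 1, had log2 fold changes from -1.27 to -0.60. Sh3bp5, an adaptor protein that binds the kinases BTK and JNK, was at 25.2, 28.8 and 25.3 CPM in exercise and at 40.4, 40.4 and 40.2 CPM in sedentary libraries (-0.61, SE 0.12, DESeq2 adjusted p 0.0494), and the sedentary values were nearly equal. Armc10 was at 1.73, 1.20 and 1.85 CPM against 3.52, 3.37 and 4.01 CPM (-1.19, SE 0.26, DESeq2 adjusted p 0.0494). Snhg17, a host RNA of small nucleolar RNAs, was at 1.57, 1.41 and 1.03 CPM against 3.91, 2.67 and 3.07 CPM (-1.27, SE 0.29, DESeq2 adjusted p 0.0743). These low genes did not overlap between groups. Madd (-0.77, SE 0.16), Stard13 (-0.84, SE 0.23) and Ube2g2, a ubiquitin-conjugating enzyme of endoplasmic reticulum quality control (-0.82, SE 0.21), were also below all sedentary libraries in every exercise library. Cp, the copper protein ceruloplasmin, stood at 2.85, 2.42 and 2.49 CPM against 5.73, 3.82 and 5.66 CPM (-0.97, SE 0.24).

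Clock genes differed by member. Of 19 tested, 3 were higher and 1 lower in every exercise library, against 4.78% and 5.1% of all genes, with a median log2 fold change of 0.10. Nr1d1, which encodes the repressor REV-ERB alpha, was at 61.0, 60.7 and 74.2 CPM in exercise against 96.5, 113 and 87.4 CPM (-0.60, SE 0.16), and its exons overlap those of Thra on the opposite strand. Nfil3, a repressor of D-box genes, was at 75.6, 88.3 and 82.7 CPM against 38.3, 57.6 and 57.6 CPM (0.68, SE 0.19). Per1, a repressor of the core loop that is also an immediate target of CREB and glucocorticoids, was at 194, 218 and 199 CPM against 171, 140.0 and 152 CPM (0.40, SE 0.14). Hlf, an activator of D-box genes, had a log2 fold change of 0.33 (SE 0.15). The hour of sampling of each group was not given, so a difference in time of day and exercise cannot be told apart.

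Secreted factors were few. Of 18 myokine genes tested of 22 in the table, 1 was higher in every exercise library, a share near the 4.78% of all genes. That gene, Il15, a cytokine made by muscle fibres, was at 3.51, 2.32 and 3 CPM in exercise and at 1.31, 1.24 and 1.29 CPM in sedentary libraries (1.20, SE 0.27, DESeq2 adjusted p 0.0693). The sedentary libraries were nearly equal and lay well below all exercise libraries. Angptl4, a lipoprotein lipase inhibitor induced by fasting, had a log2 fold change of -0.52 (SE 0.24). Padi2, the peptidylarginine deiminase of muscle, which converts arginine to citrulline in proteins, was at 181, 116 and 129 CPM against 59.0, 85.5 and 72.0 CPM (0.97, SE 0.22, DESeq2 adjusted p 0.0401), with the groups apart.

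Muscle fibres are typed by their myosin heavy chain, Myh7 in slow oxidative fibres and Myh2, Myh1 and Myh4 in increasingly fast ones. Of 18 slow fibre contractile genes, 0 had groups that did not overlap, and the median log2 fold change was -1.84. Myh7 was at 1176, 1746 and 7.85 CPM in exercise and at 9823, 623 and 3487 CPM in sedentary libraries (-2.25, SE 1.52). Tnnt1, slow troponin T, was likewise lowest in exercise 3 and highest in sedentary 1, with 279, 277 and 1.62 CPM against 2211, 184 and 620.0 CPM. Exercise 3 thus held the fewest slow fibre transcripts and sedentary 1 the most, while sedentary 2 was below exercise 1 and 2. The list median was -0.99 without sedentary 1, -1.33 without exercise 3 and -0.42 without both. The summed level of the list was 1159 to 5928 CPM in exercise and 3498 to 27628 CPM in sedentary libraries. In bulk tissue, fewer fibres of a type and less RNA per fibre cannot be told apart, and the part of the muscle taken for each library was not given.

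**Figure D3:**
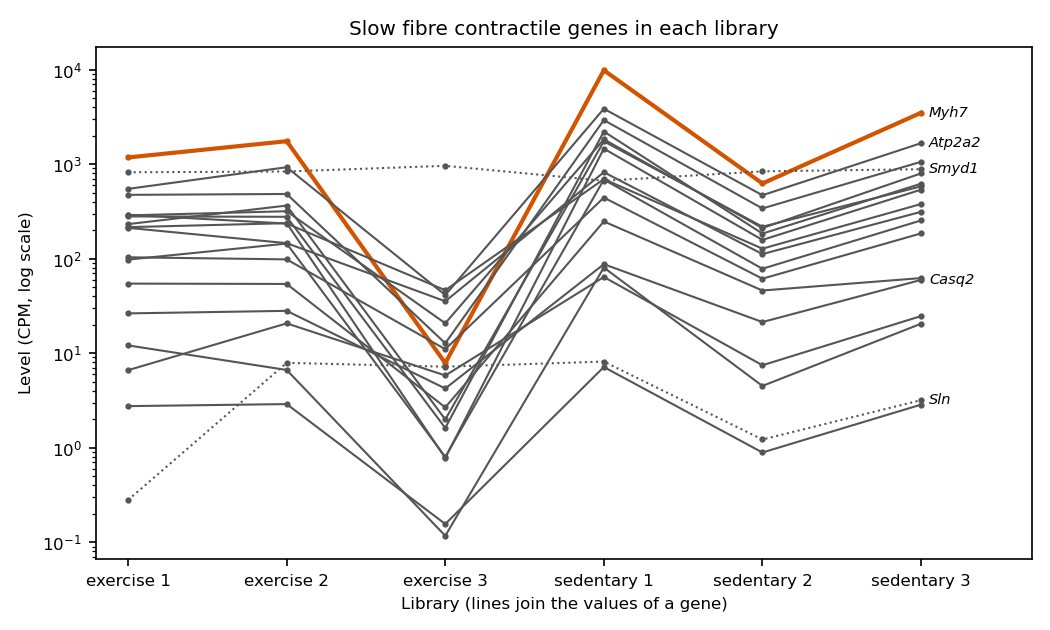
Each line is 1 of the 18 slow fibre contractile genes over the 6 libraries (CPM, log scale), with Myh7 in orange, Smyd1 and Sln dotted and 4 genes named besides Myh7. Most lines drop together in exercise 3 (Myh7 at 7.85 CPM) and peak together in sedentary 1 (Myh7 at 9823 CPM).

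Genes that moved with the slow fibre list included heat shock proteins. Hspa1a, the inducible HSP70, was at 12.0, 22.3 and 4.68 CPM against 92.2, 8.30 and 32.8 CPM (-1.78, SE 0.85), and Hspb7 was at 369, 499 and 106 CPM against 1777, 253 and 733 CPM (-1.50, SE 0.76). Without exercise 3 and sedentary 1 these log2 fold changes were -0.27 and -0.18. Over 25 heat shock chaperones the median was -0.063, with 1 above and 1 below without overlap, Hspb3 (-0.33, SE 0.17). Hsph1, a partner of HSP70, was the gene above, at 89.6, 80.0 and 97.6 CPM against 75.2, 73.4 and 69.0 CPM (0.30, SE 0.13).

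Fast fibre genes were described by 22 members with a median log2 fold change of 0.25, which was -0.0021 without sedentary 1 and -0.075 without exercise 3 and sedentary 1. Myh1, the fast 2X myosin, was at 7256, 4834 and 2378 CPM in exercise and at 1395, 2298 and 2385 CPM in sedentary libraries (1.25, SE 0.42). Exercise 3 lay within the sedentary range, and the log2 fold change was 1.58 without it. The annotation places the antisense RNA Myhas on the opposite strand of Myh1. Myh4, the fast 2B myosin, was at 79536, 93937 and 120024 CPM against 42062, 94335 and 100674 CPM (0.31, SE 0.38), and Myh2, the 2A myosin, at 4408, 2443 and 652 CPM against 7668, 970.4 and 3985 CPM (-0.75, SE 0.82). For both myosins the groups overlapped. Ryr1, the calcium release channel of the sarcoplasmic reticulum, was above without overlap, as was the calcium channel subunit Cacna1s (0.21, SE 0.17), and stood at 6622, 7406 and 7818 CPM against 4834, 6454 and 6235 CPM (0.32, SE 0.21).

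Genes of mitochondrial fuel use differed little. Of 21 tricarboxylic acid cycle and pyruvate dehydrogenase genes, 20 had a log2 fold change above 0, where 49% of all genes did, and the median was 0.14. In this list 3 were higher without overlap (4.78% of all genes), among them Sdha and Suclg1. Sdha, the catalytic subunit of complex II, was at 799, 679.9 and 819 CPM against 592, 642 and 663 CPM (0.28, SE 0.16). Suclg1, a subunit of succinate-CoA ligase, was at 211, 173 and 171 CPM against 144, 161 and 155 CPM (0.27, SE 0.15). Of 20 genes of branched-chain amino acid and ketone breakdown, 3 were higher without overlap, Acadsb, Pcca and Aldh6a1, with a median of 0.080. Pcca, the biotin-carrying subunit of propionyl-CoA carboxylase, was at 45.0, 43.8 and 41.4 CPM against 30.3, 33.7 and 31.0 CPM (0.46, SE 0.12). The gap between groups was wider than the spread within them, and Ggact overlaps Pcca on the opposite strand.

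Of 31 fatty acid oxidation genes, 1 was higher without overlap, Crat, which balances acetyl-CoA with carnitine, at 542, 536 and 498 CPM against 434, 444 and 453 CPM (0.24, SE 0.14). The list's median was -0.057, but 0.25 without exercise 3 and sedentary 1, where 6 members were above without overlap (16.9% of all genes). Cd36, the fatty acid transporter, had a log2 fold change of -0.13 (SE 0.28). Respiratory chain subunits showed 0 non-overlapping members in either direction, with medians of 0.093 over 37 complex I genes and 0.077 over 37 genes of complexes III to V. Without exercise 3 and sedentary 1 these medians were 0.24 and 0.25. In that case 18 and 21 members were above without overlap, where 16.9% of all genes were, and 0 were below, where 18% were. The 15 mitochondrially encoded transcripts had a median of 0.27, with 13 above 0 and 0 without overlap. Ppargc1a, the coactivator that drives mitochondrial biogenesis, was at 25.9, 25 and 25.5 CPM against 23.6, 23.2 and 31.1 CPM (-0.027, SE 0.15). Its groups overlapped, while Tfb2m, a mitochondrial transcription factor (0.53, SE 0.19), and Ppard, a fatty acid sensing receptor (0.36, SE 0.16), were higher and Gabpb1 (-0.13, SE 0.18) lower without overlap among 19 regulators.

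AMPK, the energy sensor named in the series title, was described by 18 genes of its subunits, its upstream kinases and their partners, and its substrates. Of these, 2 were higher without overlap (4.78% of all genes) and the median was 0.15, which was -0.0029 without sedentary 1. These were Acacb, an acetyl-CoA carboxylase that AMPK phosphorylates (0.16, SE 0.16), and Cab39l. Cab39l, a partner of the upstream kinase LKB1, was at 13.3, 12.0 and 14.7 CPM against 8.55, 11.8 and 11.5 CPM (0.33, SE 0.18). Glycolysis and glycogen genes numbered 27, with 0 non-overlapping and a median of 0.16, and Hk2, the muscle hexokinase, was at 486, 481 and 536 CPM against 359, 328 and 511 CPM (0.33, SE 0.20). The 23 antioxidant enzymes tested had 1 member above, Txnrd1 (0.35, SE 0.17), and the 24 autophagy genes had 1 above, Lamp1 (0.16, SE 0.15), with medians of 0.082 and 0.032. Proteasome subunits numbered 31, with 1 above, Psmb2 (0.24, SE 0.13), and a median of 0.0053. Of 74 cytosolic ribosomal protein genes, 1 was above, Rpl17 (0.44, SE 0.20), and 7 were below, against 4.78% and 5.1% of all genes, with a median of -0.012.

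Genes of other cell types in muscle were checked because cell content can differ between pieces of tissue. Of 25 collagen and matrix genes 0 were non-overlapping, and the median was -0.23, but 0.43 without sedentary 1 and 0.46 without both sedentary 1 and exercise 3. Col1a1, the main fibrillar collagen, was at 103, 64.4 and 62.8 CPM against 333, 47.8 and 49.7 CPM, so that sedentary 1 alone was high. Tendon and cartilage genes, such as Thbs4 at 87.5, 96.6 and 22.9 CPM against 296, 30.8 and 70.8 CPM, had a median of -0.69, and 0.53 without sedentary 1. Endothelial markers had a median of -0.22 over 15 genes, with Emcn, an endothelial sialomucin, below (-0.59, SE 0.23) and Sox17, an arterial transcription factor, above (0.44, SE 0.18).

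The myogenic list of 16 genes tested had 1 non-overlapping member, Chrna1, the receptor subunit of the neuromuscular junction, at 16.3, 13.3 and 8.22 CPM against 36.7, 18.1 and 19.4 CPM (-0.97, SE 0.35). Myog, a differentiation factor, was at 4.14, 8.12 and 8.46 CPM against 3.39, 4.55 and 2.84 CPM (0.94, SE 0.33), with exercise 1 inside the sedentary range. The 12 macrophage markers tested had a median of -0.046, 0.86 without sedentary 1 and -0.45 without exercise 3. The fibroblast, adipocyte, brown adipocyte and Schwann cell lists had medians of 0.26, 0.37, -0.55 and -0.60. Neutrophil and mast cell genes summed to 1.22 to 6.57 CPM in exercise and 2.12 to 9.40 CPM in sedentary libraries, and T and B cell genes to less than 1 CPM in each library. Erythroid genes had a median of -0.49 over 7 tested of 9, and Slc4a1, the red cell anion exchanger, was at 0.132, 0.152 and 0.156 CPM against 0.591, 2.49 and 0.889 CPM, which DESeq2 called lower (-3.17, adjusted p 0.011). The part of these cell types in the results above was not tested.

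Transcripts of several liver proteins were found mainly in sedentary 1 and 2. Alb, the serum albumin gene, had counts of 0, 0 and 0 in exercise and 734, 721 and 4 in sedentary libraries. Mat1a, a liver enzyme of methionine metabolism, had counts of 0, 0 and 0 against 56, 122 and 4, and Ttr, the thyroxine carrier, 0, 0 and 0 against 64, 97 and 4. For these 3 genes sedentary 3 was near the exercise libraries, while Fbp1, a gluconeogenic enzyme, had counts of 0, 0 and 0 against 22, 25 and 14. Other members of the list were present in all 6 libraries, such as Apoa1 at 6.31, 9.59 and 10.7 CPM against 4.82, 11.6 and 7.30 CPM, and the list summed to 27.4 to 57.7 CPM in exercise and 22.4 to 64.1 CPM in sedentary libraries. DESeq2 called Alb, Ttr, Mat1a, Serpina3k and Fbp1 lower in exercise, with adjusted p-values of 0.0319, 0.0032, 0.00268, 0.037 and 0.0401. Only 5 of the 16 genes on the liver and serum list passed the filter, and Alb did not. Of all genes in the table, 140 had a count of 0 in every exercise library and above 0 in every sedentary library, and 16 had the opposite pattern. The exercise libraries had lower total counts. Junb, Nr4a3, Sema4c and Rragd, which had the lowest DESeq2 p-values, were present in all 6 libraries.

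**Figure D4:**
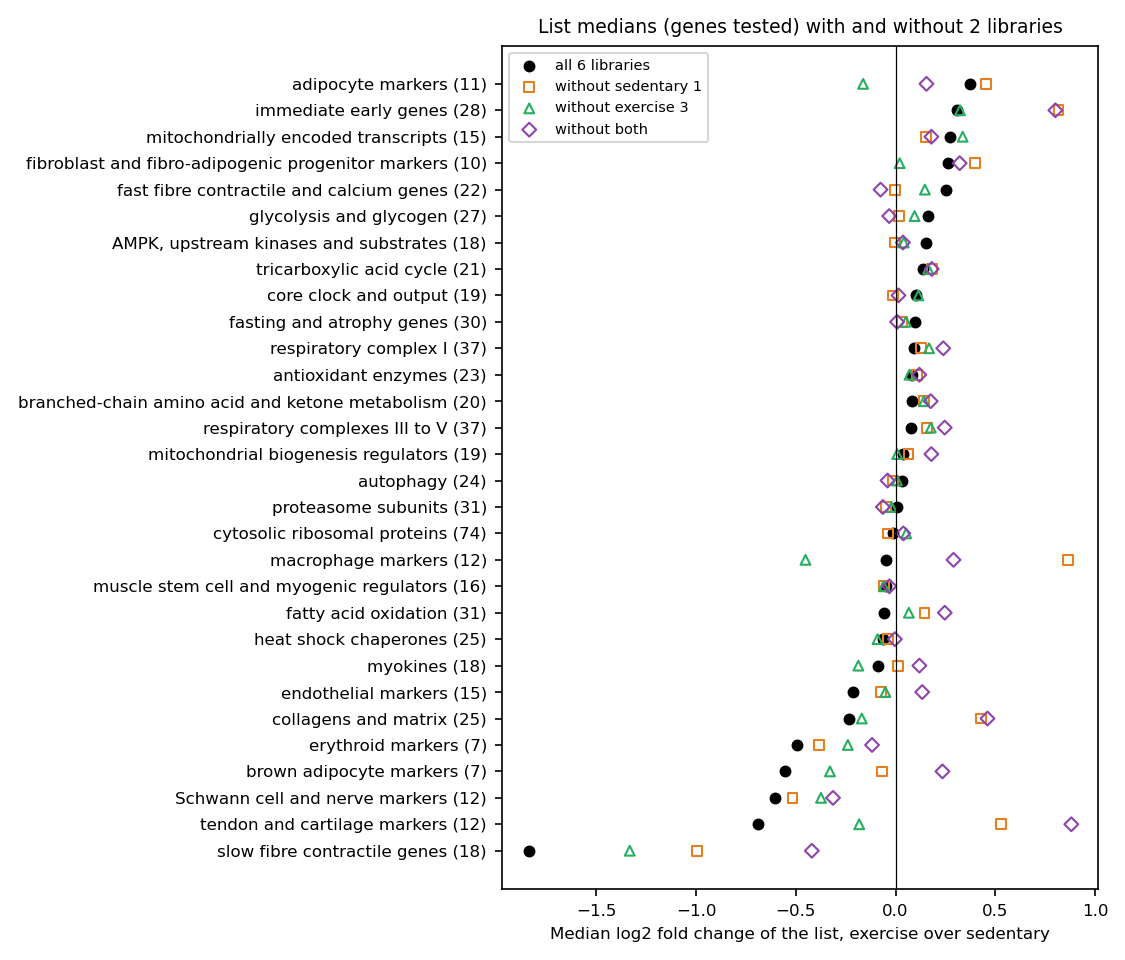
Median edgeR log2 fold change of each gene list with at least 7 genes tested, exercise over sedentary, with all 6 libraries (filled circles) and without sedentary 1, exercise 3 or both (open symbols). Slow fibre genes lie at -1.84, -0.99, -1.33 and -0.42, and collagens at -0.23, 0.43, -0.17 and 0.46, while the tricarboxylic acid cycle list lies between 0.14 and 0.18.

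The same contrast can be made in replicates 4 to 6 of both groups, and the difference between the contrasts was tested as an interaction over the 12 libraries. Of 17072 genes, 0 differed at an edgeR adjusted p under 0.05 and 814 (4.77%) had an unadjusted p under 0.05. The genes below were chosen for small p-values in libraries 1 to 3, so smaller differences elsewhere carry no independent weight. Junb was at 7.07, 8.36 and 11.2 CPM in exercise 4 to 6 and at 19.7, 12.4 and 8.68 CPM in sedentary 4 to 6, a log2 fold change of -0.62 (SE 0.35). The difference between contrasts was 2.88 (SE 0.50, edgeR adjusted p 0.967), with the smallest p of all genes. Nr4a3 was at 2.53, 6.85 and 5.78 CPM against 12.3, 24.4 and 5.61 CPM (-1.48, SE 0.51), and Nr4a2 had a log2 fold change of -1.43 (SE 0.68). Both genes thus had estimates of opposite sign in each set, with edgeR adjusted p-values of 0.967 for the difference. Nr4a1 had estimates of the same sign, with 0.51 (SE 0.33) in replicates 4 to 6. Over the 28 immediate early genes the median in replicates 4 to 6 was 0.17, against -0.023 over all genes, with 20 members above 0. Of these 28 genes, 2 were above without overlap in replicates 4 to 6, where 7.49% of all genes were, and 0 were below, where 6.39% of all genes were.

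Some other genes had estimates of the same sign in both sets. Il15 was at 5.66, 10.2 and 8.46 CPM against 3.31, 2.40 and 2.64 CPM in replicates 4 to 6 (1.54, SE 0.26, edgeR adjusted p 0.258), and the difference between contrasts was -0.34 (SE 0.37). Padi2 was at 123, 157 and 163 CPM against 110.0, 96.5 and 72.5 CPM (0.66, SE 0.23), and Myh1 at 3128, 4655 and 7279 CPM against 1223, 2905 and 2677 CPM (1.15, SE 0.45). In all 3 genes the groups of replicates 4 to 6 did not overlap. Pcca (0.34, SE 0.19) was also above without overlap. Rragd (-0.25, SE 0.34), Acadsb (-0.16, SE 0.23) and Sema4c (0.06, SE 0.21) were near 0, and Rragd and Acadsb differed in sign between the sets. Their differences between contrasts were 1.95 (SE 0.48), 1.48 (SE 0.32) and 1.21 (SE 0.30), each with an edgeR adjusted p of 0.967. Chrna1, below without overlap in replicates 1 to 3, was above without overlap in replicates 4 to 6 (0.63, SE 0.33). Its difference between contrasts was -1.60 (SE 0.465, edgeR adjusted p 0.967). Nr1d1 (0.37, SE 0.18) and Mt1 (-0.41, SE 0.39) also had the opposite sign in replicates 4 to 6, where their groups overlapped. The lists of fatty acid oxidation, the tricarboxylic acid cycle and branched-chain breakdown had medians of 0.71, 0.50 and 0.46 in replicates 4 to 6. There 23 of 31, 15 of 21 and 13 of 20 members were above without overlap, where 7.49% of all genes were. In replicates 1 to 3 these numbers were 1, 3 and 3, where 4.78% of all genes were. Without exercise 3 and sedentary 1 they were 6, 7 and 6, where 16.9% of all genes were. A difference of lists between the sets was not tested. Sedentary 6 was far below sedentary 4 and 5 for some members, such as Sdha at 870, 777 and 348 CPM in sedentary 4 to 6. It was not for Suclg1, at 254, 230 and 253 CPM.

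**Figure D5:**
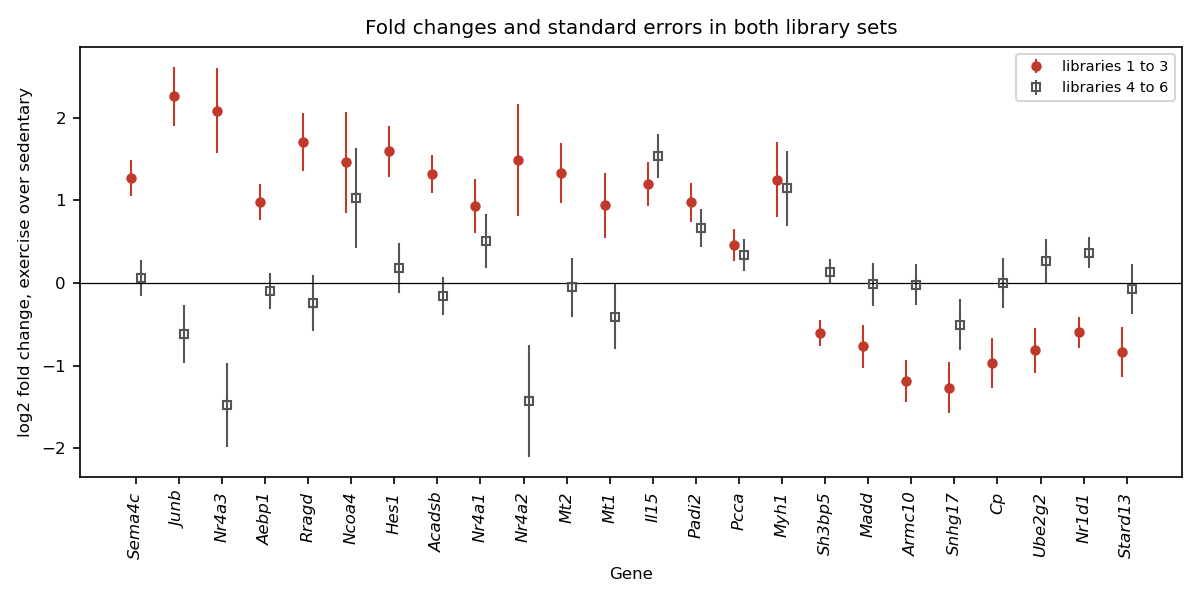
Log2 fold changes of exercise over sedentary with standard errors, from 1 edgeR fit of 12 libraries, for named genes in replicates 1 to 3 (filled circles) and 4 to 6 (open squares). Junb and Nr4a3 lie at opposite sides of 0 (2.26 and -0.62 for Junb), while Il15 lies at 1.20 and 1.54.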

How the data were processed

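The deposited values were gene counts for 22798 symbols in 1 table. The submitters' processing notes name HISAT2 2.0.1, HTSeq 0.6.1, Trimmomatic 0.30 and GRCm38, with no order. Whether reads were counted by strand is not given in the sources used here, so opposite-strand overlaps are stated for some genes. Others also overlap exons on the opposite strand, among them Padi2, Sh3bp5, Cp, Crat, Foxo1, Cab39l, Aldh6a1, Ryr1, Hspa1a, Sox17, Myh2 and Myh7. Per the labels' protocols, libraries were made from total RNA with an NEBNext Ultra kit.

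Low genes of the 6 libraries were removed with filterByExpr. A robust quasi-likelihood test (edgeR 4.0.16, R 4.3.3) with TMM scaling and no block was run on 16012 genes, with Benjamini-Hochberg adjustment and a threshold of 0.05. Standard errors came from the fold change and its F statistic. The contrast of replicates 4 to 6 and the interaction used 12 libraries. Alternatives were DESeq2 1.42.0, limma-voom (limma 3.58.1), RLE factors, other filters, no robust dispersion, a GC correction (lowess span 0.3), fits of 12 and 15 libraries, a replicate block and leaving out each library. Leaving out exercise 3 and sedentary 1 together, and the alternatives for the non-overlap count of immediate early genes, were chosen after seeing the data. The scripts were tested on simulated data.

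Named genes were the 8 with the smallest p in each direction whose mean log2-cpm reached 1 (clone names and sex-linked genes left out), up to 4 per list by p over 34 lists, and 12 fixed genes. The members and lists were chosen with earlier results of these data known. In GENCODE M21, 22716 symbols were found once. Values of 1 gene of a list are not reported here.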

Additional observations from a re-analysis of the deposited data

How the results depend on the processing

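Of the settings tried, DESeq2 was the one that called genes: it called 36, while 0 were called in every other fit, including those without 1 library. Genes with an unadjusted edgeR p under 0.05 numbered 452 to 777 over fits without 1 library and 955 with the replicate block and GC correction together. The replicate block alone gave 0 calls and 846 such genes, and 0 calls for the difference between library sets. Same-numbered libraries of the 2 groups had correlations of 0.158, -0.0776 and 0.0879, and differently numbered ones -0.238 to 0.188. So few values cannot show whether the numbers pair the libraries. Fold changes followed GC content with a Spearman correlation of -0.15 over 6261 genes, as a description. The number of immediate early genes above without overlap was 10 to 14 without 1 library, and 14 without exercise 3 and sedentary 1. With fewer libraries this criterion is easier to meet, so the range cannot show that the count is stable. The share over all genes also rose, from 4.78% to 9.31% without sedentary 1, 8.13% without exercise 3 and 16.9% without both.

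Some list medians moved by more than their replicate spread, and the cause was not tested. Without exercise 3 and sedentary 1 the medians were -0.075 for fast fibre, 0.015 for clock, 0.46 for collagen, 0.13 for endothelial, 0.23 for brown adipocyte, -0.12 for erythroid and -1.02 for neutrophil and mast cell genes. With the stricter filter the brown adipocyte median was 0.037. Over fits without 1 library the medians ranged from -0.0021 to 0.42 (fast fibre), -0.0029 to 0.20 (AMPK), -0.012 to 0.15 (clock), -0.57 to 0.43 (collagens), -0.49 to -0.051 (endothelial), -1.16 to -0.067 (brown adipocyte), -1.04 to -0.24 (erythroid), -8.39 to -0.066 (liver and serum) and -1.35 to 0.74 (neutrophil and mast cell). The sign of 11 of 34 list medians changed without sedentary 1 and of 14 without both libraries. Of 153 named genes, 10 changed sign without sedentary 1 and 0 with DESeq2, RLE factors or the GC correction. Without both exercise 3 and sedentary 1, 18 of 152 changed sign. The median standard error of genes of at least 10 CPM was 0.175 (log2).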

Other observations

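DESeq2 called further genes outside the lists, given here as values with no explanation. Uts2r, the urotensin 2 receptor, was at 2.08, 3.12 and 3.88 CPM in exercise and at 0.945, 0.959 and 0.975 CPM in sedentary libraries (log2 fold change 1.65, DESeq2 adjusted p 0.00698). Arl4d, a small GTPase, was at 21.7, 31.4 and 29.1 CPM against 14.4, 12.5 and 16.5 CPM (0.92, DESeq2 adjusted p 0.0401). The sedentary values of Uts2r were nearly equal, and the groups of both genes did not overlap. Nek7, a kinase that activates the NLRP3 inflammasome, was at 19.2, 70.4 and 117 CPM against 10.7, 16.3 and 20.7 CPM (2.12, DESeq2 adjusted p 0.0312), and exercise 1 lay inside the sedentary range. Pla2g4b, a phospholipase A2, was lower, at 0.395, 0.647 and 0.584 CPM against 2.09, 2.09 and 1.43 CPM (-1.79, DESeq2 adjusted p 0.0206). These genes were chosen after their values were seen.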
